A study of Homo sapiens with 12 samples.

Results

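UNC0642 recovery was compared with DMSO recovery in HCT116, a long-established line of human colorectal carcinoma cells, across all genes and in 8 of the 12 RNA sequencing libraries of the series. The members are the 4 libraries labelled as recovered with UNC0642 and the 4 labelled as recovered with its vehicle DMSO. Both groups grew in RPMI-1640 medium with fetal bovine serum, spent 24 h in the same medium lacking methionine with UNC0642 or with DMSO, and after washing spent 24 h in medium with methionine but without the inhibitor. The RNA was therefore sampled 24 h after the inhibitor had been removed, and both groups had been restricted. The 4 libraries labelled 0 hours were left out. The dose of UNC0642 is not given in the sources used here.

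UNC0642 is a small molecule inhibitor of EHMT2 (G9a) and EHMT1 (GLP), a pair of enzymes that add 1 or 2 methyl groups to lysine 9 of histone H3 (H3K9). These marks are bound by reader proteins such as HP1 and are characteristic of silent chromatin. Methionine is the precursor of S-adenosylmethionine, the methyl donor that EHMT1, EHMT2 and other methyltransferases consume. The comparison asks which transcripts of cells that have regained methionine differ between those given UNC0642 and those given DMSO while methionine was missing. No group had UNC0642 without restriction, so an effect that needs restriction cannot be told apart from one that does not.

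The rounded expected counts of the 8 libraries summed to between 16181056 and 20179847, and 14737 to 14887 genes had a count. Levels are given in CPM, counts scaled to library size, and 12672 of 18969 genes were abundant enough to be tested. The first principal component had every DMSO library below 0 and every UNC0642 library above 0. Some libraries stood apart in ways that the groups do not explain. DMSO 1, UNC0642 1 and UNC0642 4 had a gap between gene length and effective length of 102 to 106 bases, and the other 5 libraries 119.95 to 127 bases. DMSO 1, UNC0642 3 and UNC0642 4 held the fibroblast collagen transcript COL1A2 at 1.87, 1.88 and 3.28 CPM (scaled to library totals alone), where the other 5 had at most 0.0559 CPM. Counts were therefore also made without those 3 libraries, which leaves 3 DMSO and 2 UNC0642 libraries, and within each gap class. The gap classes were compared within a single fit to all 8 libraries, so the genes tested, the scaling and the spread come from all 8. The short-gap comparison sets the single library DMSO 1 against UNC0642 1 and UNC0642 4, and so assumes that DMSO 1 varies as the other libraries do. The labels do not tell whether replicates came from separate cultures. The p-values rest on the spread between these libraries, and that spread may be technical.

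A gene was called when its adjusted p was under 0.05 in edgeR's quasi-likelihood test with Benjamini-Hochberg adjustment over all 12672 genes. After UNC0642, 265 genes rose (2.09% of those tested) and 293 fell (2.31%), 558 in all (4.40%). Most changes were small. The median size of a called change was 1.18-fold, the smallest 1.05-fold, and 95 called genes passed 1.5-fold, of which 45 rose (0.355%) and 50 fell (0.395%). In 507 of the 558 called genes all 4 libraries of one group lay above all 4 of the other, which held for 10.6% of tested genes. In RNA from bulk cells, a lower level in every cell and fewer cells with the transcript cannot be told apart. Without the 3 libraries that held COL1A2, 274 genes were called. The comparison within the 5 long-gap libraries also gave 274. None of these calls, nor any in the short-gap comparison, went against the direction found with 8 libraries. Leaving out DMSO 2 or DMSO 4 gave 361 each.

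**Figure D1:**
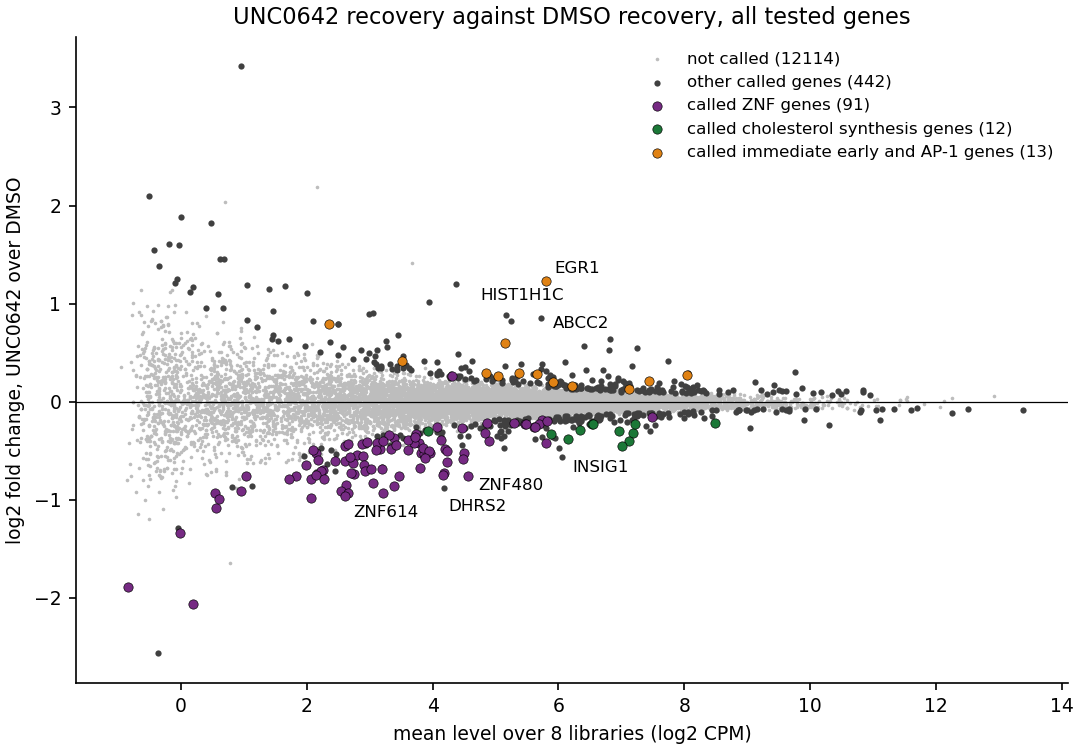
Log2 fold change of UNC0642 over DMSO recovery (vertical axis) against the mean level over 8 libraries in log2 CPM (horizontal axis), 1 point per tested gene. Grey points were not called. Called zinc-finger genes lie below 0 with 1 exception, called cholesterol synthesis genes lie below 0 and called immediate early genes above it.

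Small and unnamed RNA genes, with names that begin with SNOR, SCARNA, MIR, LOC, RNU or RNY, were left out of the ranking by size. Where any other called gene averaged log2 CPM 1 or more and its groups did not overlap, the 15 largest rises belonged to EGR1, MAT1A, ARHGDIB, FABP6, FHAD1, KRT81, COL17A1, NRG1, KRT23, HIST1H1C, ABCC2, OR52D1, ZBED2, FOS and HIST2H2AA3. They spanned log2 fold changes of 1.23 for EGR1 to 0.79 for HIST2H2AA3, the transcription factor and the histone gene described further on. The 15 largest falls included 13 zinc-finger genes, ZNF530, ZNF614, ZNF266, ZNF567, ZNF274, ZNF91, ZNF134, ZNF808, ZNF283, ZNF850, ZNF416, ZNF225 and ZNF84. The other 2 were DHRS2, a mitochondrial short-chain dehydrogenase, and MFSD4, a membrane transporter of the major facilitator family. These falls spanned -0.98 for ZNF530 to -0.76 for ZNF84. OR52D1 (adjusted p = 0.041) lost its call in 6 of the 8 fits that left out 1 library (up to 0.181), and MFSD4 (0.0356) in 4 (up to 0.145). ZNF225 lost it without DMSO 2, DMSO 3 or UNC0642 3 (up to 0.0665).

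The transcripts of the inhibitor's targets did not pass the test. EHMT1 stood at 87.3, 82.5, 91 and 81.7 CPM in the DMSO libraries and 88.1, 83, 84 and 87.2 CPM in the UNC0642 libraries, with a log2 fold change of 0.00 ± 0.04 (SE, n = 4 per group; adjusted p = 0.999). EHMT2 stood at 131, 131, 124 and 121 CPM against 126, 124, 126 and 127 CPM, with -0.01 ± 0.03 (adjusted p = 0.934). The groups overlapped for both genes. The RNA level of an enzyme says nothing of its activity, so these values do not check the inhibition.

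Of 15 tested H3K9 methyltransferases and their cofactors, 1 was called, against 2.31% of all genes called lower. ATF7IP, which stabilises the methyltransferase SETDB1, stood at 30.1, 34.9, 31.4 and 34.4 CPM against 28.3, 27.2, 28.3 and 26.5 CPM. Its log2 fold change was -0.25 ± 0.06 (adjusted p = 0.0119), and without DMSO 2 or DMSO 4 the adjusted p rose to as much as 0.0602. SETDB1 itself (-0.07 ± 0.06, adjusted p = 0.60) and TRIM28, the corepressor that links KRAB zinc-finger proteins to SETDB1 (-0.00 ± 0.02, adjusted p = 0.977), were not called. Of 13 tested genes for readers of methylated H3K9 and associated proteins, 1 fell, the chromatin remodeller gene ATRX (-0.19 ± 0.05, adjusted p = 0.0326). Its groups overlapped, and its call ended in the fits without DMSO 2, DMSO 4, UNC0642 3 or UNC0642 4 (up to 0.15). Of 11 H3K9 demethylases, 2 fell. KDM3A, which removes mono- and dimethyl marks from H3K9, stood at 40.2, 37.9, 37.5 and 41.3 CPM against 31.3, 29.3, 31.3 and 31.8 CPM, so that every UNC0642 library lay below every DMSO library. Its log2 fold change of -0.35 ± 0.05 (adjusted p = 0.000101) kept its call in all 8 fits that left out 1 library. The related KDM3B fell by 0.12 on the log2 scale (adjusted p = 0.0184) and lost its call without DMSO 3, DMSO 4 or UNC0642 1 (up to 0.0766). None of 11 DNA methylation genes was called by edgeR, DESeq2 or limma, and 3 had an unadjusted p under 0.05, as 17.2% of all tested genes did.

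Zinc-finger genes made up the largest group of falls. Most genes named ZNF encode C2H2 zinc-finger proteins, many with a KRAB domain through which they recruit TRIM28 and H3K9 methylation to the sequences they bind, and many lie side by side on chromosome 19. Of 390 tested ZNF genes, 90 fell (23.1%, against 2.31% of all genes), 1 rose and 299 were not called. Their median log2 fold change was -0.13, where the median of all tested genes was near 0. Without DMSO 1, UNC0642 3 and UNC0642 4 the number that fell was 55, in the long-gap libraries 51 and in the short-gap libraries, with 1 DMSO library, 19. With 1 library left out it lay between 68 and 86. ZNF219, the 1 that rose (0.27 ± 0.07, adjusted p = 0.0362), had overlapping groups and lost its call in 7 of the 8 fits that left out 1 library.

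The falls concentrated on chromosome 19, in the order of genes given by RefSeq. Of 162 tested ZNF genes on that chromosome 72 fell (44.4%), none rose, 148 had a negative log2 fold change and the median was -0.41. On the other chromosomes 18 of 228 ZNF genes fell (7.89%), with a median of -0.03. The 18 became 8 without DMSO 2 and 11 without UNC0642 4, where the count on chromosome 19 was 60 and 64. Genes of chromosome 19 not named ZNF fell in 15 of 764 cases (1.96%), close to the 1.63% among such genes elsewhere (188 of 11518). Over all genes, chromosome 19 had 9.40% called lower, and the next chromosome, 21, had 3.70%. The difference between these classes was not tested, since they were known to differ from earlier results of the same data. Split by mean level, 11 of the 54 least abundant ZNF genes of chromosome 19 fell, 35 of the middle 54 and 26 of the most abundant 54, with medians of -0.45, -0.49 and -0.19.

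Runs of neighbouring ZNF genes were stretches of chromosome 19 with at most 2 other genes between ZNF genes and at least 6 tested. They numbered 8 and held 125 tested genes, of which 65 fell, against 2.31% of all tested genes. In the run from ZNF577 to ZNF677, 16 of 21 fell, all 21 log2 fold changes were negative and the median was -0.63. The run from ZNF565 to ZNF573 had 8 of 13 lower with a median of -0.62, and that from ZNF283 to ZNF180 had 7 of 13 with -0.53. Of the 8 tested genes from ZNF699 to ZNF846, 7 fell, with a median of -0.49. From ZNF627 to ZNF791 the count was 7 of 14 (-0.42), from ZNF101 to ZNF254 7 of 17 (-0.38) and from ZNF264 to ZNF446 13 of 33 (-0.39). In all of these runs but the last, every tested gene had a negative log2 fold change, and in the last 30 of 33 did. The run from ZNF579 to ZNF580 was the exception, with 0 of 6 called by edgeR, DESeq2 or limma, 1 with an unadjusted p under 0.05 and a median of 0.01. Outside the runs, 7 of 37 ZNF genes of the chromosome fell.

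**Figure D2:**
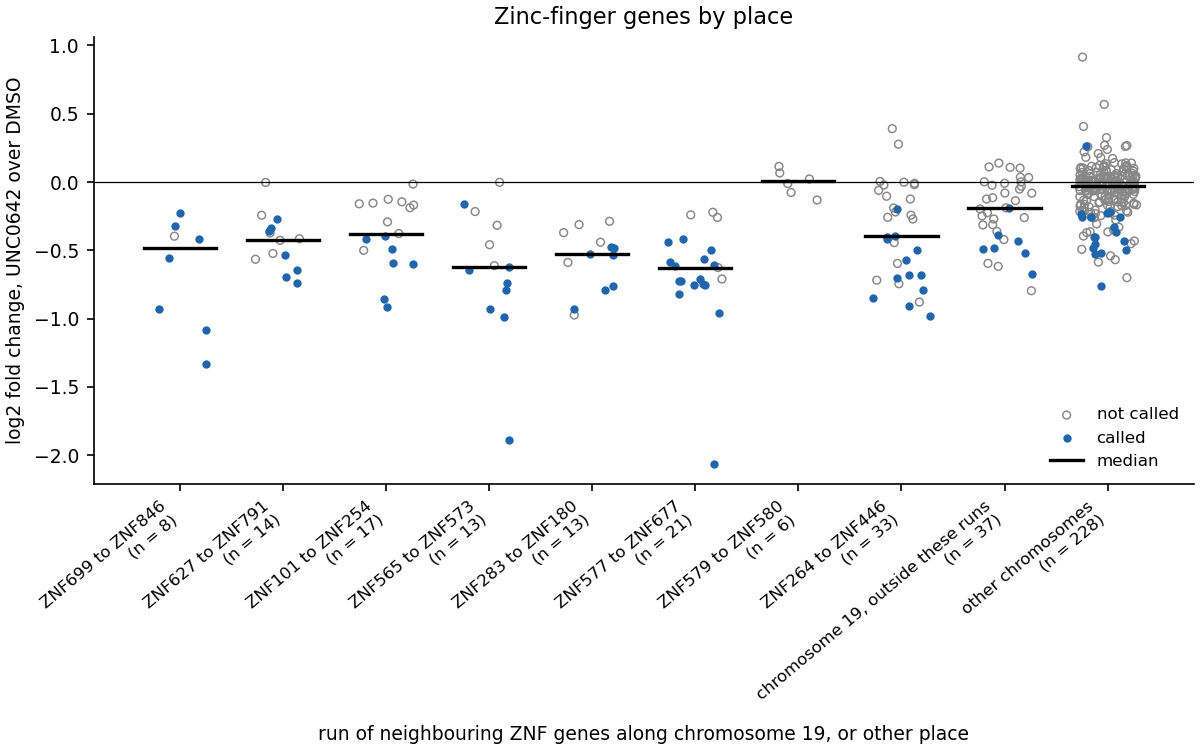
Log2 fold change of UNC0642 over DMSO recovery for 390 ZNF genes, grouped by run along chromosome 19 or by place outside the runs. Filled points were called, open points were not and the bar is the median. Of the 8 runs, 7 have medians between -0.38 and -0.63, and the run from ZNF579 to ZNF580 lies at 0.01.

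ZNF480 had the smallest p of the family, at 29, 30.1, 28 and 30.7 CPM in the DMSO libraries against 17.6, 16.9, 17.9 and 17.5 CPM in the UNC0642 libraries. The groups lay far apart, and the log2 fold change was -0.76 ± 0.06 (adjusted p = 1.25e-09), a 1.69-fold lower level. Others of the ZNF577 to ZNF677 run fell too. ZNF320 went from 23.6, 22.2, 21.1 and 22.2 CPM to 11.5, 13.6, 15.2 and 13 CPM (-0.74 ± 0.08, adjusted p = 2.14e-07), with the lowest value in UNC0642 1. ZNF28 had a log2 fold change of -0.73 ± 0.08 and ZNF83 of -0.59 ± 0.06. ZNF614 and ZNF808 of the same run fell by 0.96 and 0.82 on the log2 scale.

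ZNF274 encodes a KRAB zinc-finger protein that binds the 3′ ends of zinc-finger genes and recruits SETDB1 there. Its transcript stood at 7.72, 6.6, 8.94 and 6.65 CPM after DMSO and at 4.01, 3.84, 4.19 and 3.89 CPM after UNC0642, without overlap. The log2 fold change was -0.91 ± 0.13 (adjusted p = 3.11e-05), 1.87-fold lower. ZNF266, in the ZNF699 to ZNF846 run, fell from 13, 10.4, 12.2 and 12.6 CPM to 6.01, 6.96, 5.26 and 7.12 CPM (-0.93 ± 0.11, adjusted p = 1.22e-06). ZNF91, which represses a class of primate retroelements, fell from 11.6, 15.9, 12.1 and 14 CPM to 7.81, 6.73, 7.84 and 7.12 CPM (-0.85 ± 0.10, adjusted p = 2.83e-06). ZNF84, the 1 of the 13 zinc-finger genes above that lies outside chromosome 19, is on chromosome 12 and fell from 14, 16.2, 13.1 and 12.4 CPM to 8.62, 7.74, 8.64 and 7.79 CPM (-0.76 ± 0.10, adjusted p = 5.10e-06). Zinc-finger genes resemble one another closely, so the counting may have split reads between them and single values are uncertain.

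**Figure D3:**
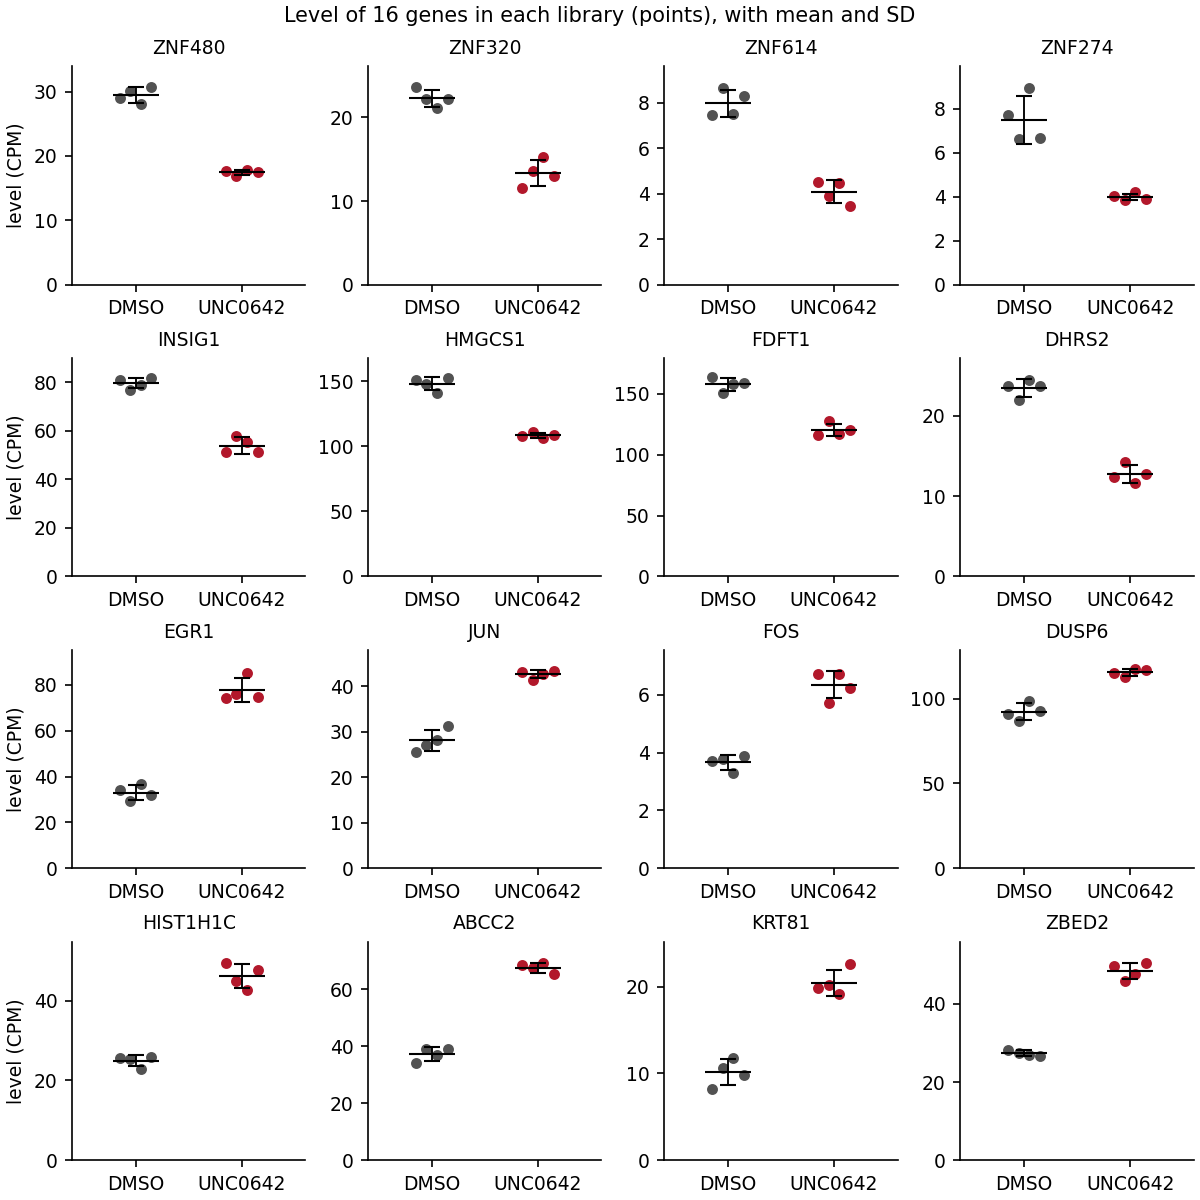
Level in CPM (vertical axis, from 0) of 16 genes in each of the 4 DMSO and 4 UNC0642 libraries (points), with the mean (bar) and SD (whiskers). The top 2 rows hold genes that were lower after UNC0642 and the bottom 2 rows genes that were higher, and in each panel the groups do not overlap.

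Genes of cholesterol synthesis were lower after UNC0642 as well. The enzymes of this pathway are transcribed under SREBP2, a factor held in the endoplasmic reticulum by SCAP and INSIG proteins while sterols are plentiful and released when they run short. Of 22 tested cholesterol synthesis genes, 12 fell (54.5%, against 2.31% of all genes), none rose and 10 were not called. The median log2 fold change was -0.22. The 12 had no overlap between the groups, as held for 507 of all 558 called genes and for 10.6% of tested genes. With 1 library left out 11 to 13 fell, without the 3 libraries that held COL1A2 11, in the long-gap libraries 11 and in the short-gap libraries, with 1 DMSO library, 10.

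In pathway order, HMGCS1, which makes HMG-CoA, stood at 151, 148, 141 and 152 CPM after DMSO and 108, 111, 107 and 108 CPM after UNC0642. Its log2 fold change was -0.45 ± 0.03 (adjusted p = 1.54e-10), the smallest p of the list. Of the mevalonate enzymes, MVD had -0.22 ± 0.04 and IDI1 -0.38 ± 0.05. FDFT1, squalene synthase, stood at 164, 150.5, 158 and 159 CPM against 116, 127, 117 and 120.0 CPM (-0.40 ± 0.03, adjusted p = 5.95e-09). From squalene onward, SQLE had a log2 fold change of -0.29 ± 0.04, LSS of -0.23 ± 0.04, CYP51A1 of -0.30 ± 0.03, SC4MOL of -0.33 ± 0.05 and HSD17B7 of -0.30 ± 0.08. DHCR7, a reductase late in the pathway, had -0.32 ± 0.03. HSD17B7 lost its call in 5 of the 8 fits that left out 1 library (up to 0.0917), and the other called genes of the list kept theirs in all 8. The first step, ACAT2 (-0.01), and PMVK (0.10), EBP (0.01), LBR (-0.02) and TM7SF2 (-0.03) had log2 fold changes near 0.

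**Figure D4:**
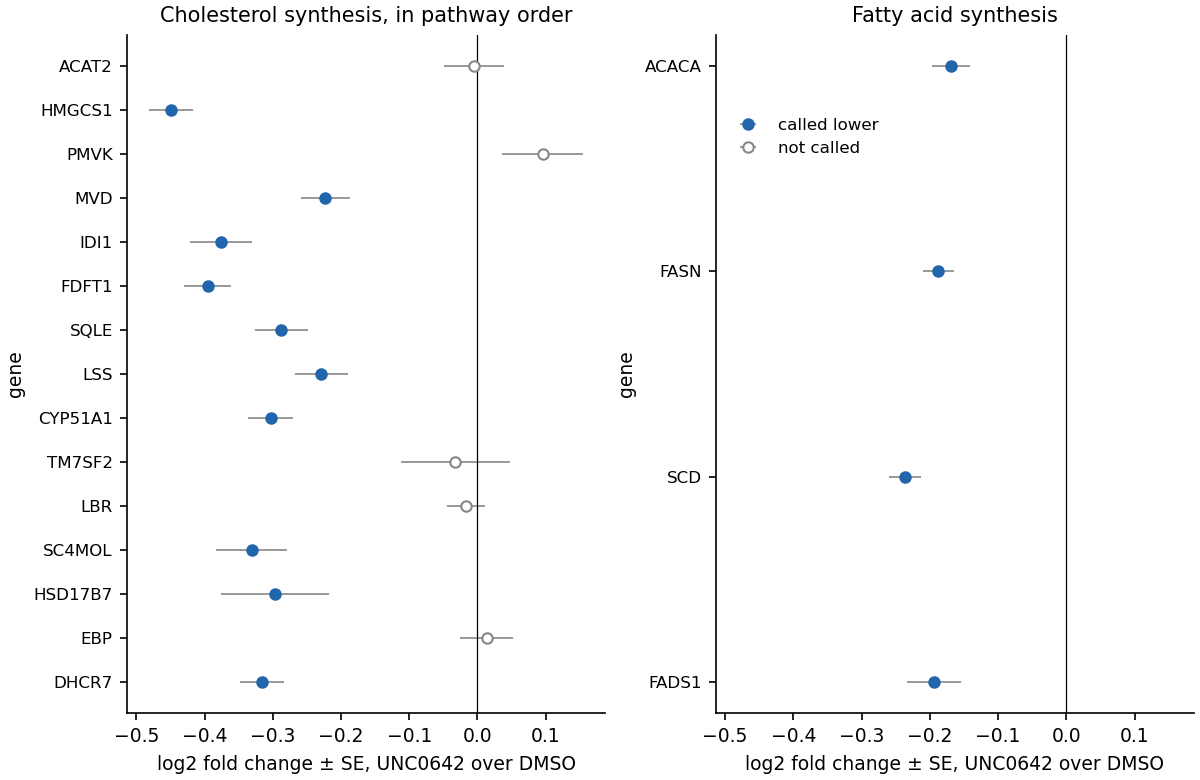
Log2 fold change of UNC0642 over DMSO recovery with its SE for the 15 cholesterol synthesis genes (left, in pathway order) and 4 fatty acid synthesis genes (right) that the text names. Filled points were called lower, 10 on the left and 4 on the right, and open points were not called.

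Of 16 genes that control SREBP or sterol uptake, 3 fell (18.8%, against 2.31% of all genes), none rose and the median was -0.03. INSIG1, the sterol-responsive anchor of SCAP and itself an SREBP target, stood at 80.9, 76.8, 79 and 81.6 CPM after DMSO and 51, 58, 55.4 and 51.2 CPM after UNC0642, a 1.48-fold lower level without overlap (-0.56 ± 0.04, adjusted p = 9.86e-10). SREBF2, which encodes SREBP2, fell by 0.11 on the log2 scale (adjusted p = 0.0186) and lost its call without DMSO 1 or UNC0642 1 (up to 0.0692). SREBF1, the gene of SREBP1, had a log2 fold change of 0.00 ± 0.03 (adjusted p = 0.993). None of 7 tested LXR receptors and targets, which respond to oxysterols, was called by edgeR, DESeq2 or limma, and 0 had an unadjusted p under 0.05.

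Promoters are shown for SREBF2, HMGCS1 and INSIG1 as examples of genes called lower, HMGCS1 from the cholesterol synthesis list and the others from the SREBP control list. Each is the 250 bases before the RefSeq start of the gene in GRCh38.p14, printed 5′ to 3′ on the gene's strand. Capitals mark the sterol element core TCACCCCAC in SREBF2 and CCAAT, here in its reverse form ATTGG, in HMGCS1 and INSIG1.
SREBF2, chr22:41832855-41833104, plus strand: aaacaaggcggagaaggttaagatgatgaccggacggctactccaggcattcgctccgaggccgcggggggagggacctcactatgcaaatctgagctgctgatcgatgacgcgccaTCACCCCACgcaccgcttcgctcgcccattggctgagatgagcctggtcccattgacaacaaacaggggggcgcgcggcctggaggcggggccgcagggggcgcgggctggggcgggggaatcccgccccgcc
HMGCS1, chr5:43313413-43313662, minus strand: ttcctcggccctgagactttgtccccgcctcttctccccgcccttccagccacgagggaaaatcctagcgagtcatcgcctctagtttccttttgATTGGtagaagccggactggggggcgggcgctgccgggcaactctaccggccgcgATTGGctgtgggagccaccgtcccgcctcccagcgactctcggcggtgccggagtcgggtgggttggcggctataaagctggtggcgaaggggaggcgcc
INSIG1, chr7:155297628-155297877, plus strand: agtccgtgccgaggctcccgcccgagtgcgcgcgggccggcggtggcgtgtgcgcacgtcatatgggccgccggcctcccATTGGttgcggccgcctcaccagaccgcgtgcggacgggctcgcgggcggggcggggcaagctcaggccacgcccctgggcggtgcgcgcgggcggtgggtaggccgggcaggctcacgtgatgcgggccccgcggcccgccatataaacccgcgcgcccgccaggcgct

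The capitals begin 133 bases before the start in SREBF2, 155 and 100 bases before it in HMGCS1 and 170 bases before it in INSIG1. The letters CCAAT, the core of the NF-Y site that often accompanies SREBP sites, were found on either strand in 13 of the 17 cholesterol synthesis promoters with a sequence (76.5%), against 33.0% of all 27305 RefSeq promoters of this length. Among the genes called lower it was 6 of 8. The exact core TCACCCCAC, searched on both strands, was found in 0 of these 17 promoters, in 1 of 13 promoters of the SREBP control list (SREBF2) and in 0.348% of all promoters. The reverse CCAAT that the SREBF2 promoter also holds is left in lower case, and no match of one motif overlaps one of the other. A match is a string of letters and was not tested as a binding site.

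Fatty acid synthesis genes, many of them SREBP1 targets, fell to a smaller extent. Of 22 tested, 7 fell (31.8%, against 2.31% of all genes), none rose and the median log2 fold change was -0.10. SCD, the desaturase that makes oleate, stood at 1373, 1404, 1358 and 1317 CPM after DMSO against 1112, 1194, 1179 and 1143 CPM after UNC0642 (-0.24 ± 0.02, adjusted p = 6.14e-08). FASN, the fatty acid synthase, stood at 2273, 2399, 2381 and 2313 CPM against 1957, 2098, 2121 and 2049 CPM (-0.19 ± 0.02, adjusted p = 2.09e-06). ACACA, which makes malonyl-CoA, had -0.17 ± 0.03 (adjusted p = 0.000256) and the desaturase FADS1 -0.19 ± 0.04 (0.0028). All 4 had no overlap between the groups, as held for 507 of all 558 called genes and for 10.6% of tested genes. Each of the 4 kept its call in all 8 fits that left out 1 library. The count was 4 without DMSO 4 or without UNC0642 1, and 3 without the libraries that held COL1A2 and within each gap class.

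Immediate early genes were higher after UNC0642. These genes respond within minutes to growth factor and stress signals and encode transcription factors such as EGR1 and the AP-1 subunits of the FOS and JUN families. Of 26 tested, 13 rose (against 2.09% of all genes), none fell and the median log2 fold change was 0.19. With 1 library left out 9 to 13 rose, in the long-gap libraries 10, in the short-gap libraries, with 1 DMSO library, 5 and without the 3 libraries that held COL1A2 5.

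EGR1 had the largest rise of the comparison within the limits on level, overlap and gene names given above. It stood at 34.1, 29.4, 36.9 and 31.8 CPM in the DMSO libraries and 74.4, 76.1, 85.3 and 74.7 CPM in the UNC0642 libraries, of which UNC0642 3 was the highest. The level was 2.35-fold higher (log2 fold change 1.23 ± 0.06, adjusted p = 4.18e-14). JUN rose from 25.6, 27.1, 28.2 and 31.2 CPM to 43.1, 41.3, 42.6 and 43.3 CPM (0.60 ± 0.06, adjusted p = 3.92e-08). FOS, at a low level, rose from 3.7, 3.76, 3.3 and 3.87 CPM to 6.71, 5.73, 6.71 and 6.23 CPM (0.79 ± 0.13, adjusted p = 0.000172). The smaller rises included IER3 (0.27 ± 0.03), FOSL1 (0.21 ± 0.04), FOSL2 (0.29 ± 0.05), the secreted CYR61 (0.29 ± 0.05) and ZFP36 (0.29 ± 0.06), which destabilises messenger RNA. Without the 3 libraries that held COL1A2, FOSL1, FOSL2, CYR61 and ZFP36 lost their calls (adjusted p = 0.109, 0.0615, 0.0585 and 0.0673). FOSL2 lost its call in the long-gap libraries too (0.0912). JUNB (0.20), CTGF (0.41), IER2 (0.13), KLF2 (0.27) and KLF10 (0.16) were called too, but each lost its call in at least 1 fit that left out a library. That library was DMSO 2 for CTGF (adjusted p = 0.0549), and for JUNB UNC0642 3 or UNC0642 4 (up to 0.0778). For IER2, KLF10 and KLF2 it was any of 3, 3 and 5 of the 8 libraries (up to 0.0836, 0.0938 and 0.115). JUND (-0.05), ATF3 (0.20) and MYC (0.05, adjusted p = 0.346) were not called.

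The EGR1 promoter is shown for the pair of CArG boxes, the binding sequence of serum response factor, that lie next to each other in it. The CArG box was looked for after the data were seen. Capitals mark the boxes, which begin 105 and 83 bases before the start.
EGR1, chr5:138465229-138465478, plus strand: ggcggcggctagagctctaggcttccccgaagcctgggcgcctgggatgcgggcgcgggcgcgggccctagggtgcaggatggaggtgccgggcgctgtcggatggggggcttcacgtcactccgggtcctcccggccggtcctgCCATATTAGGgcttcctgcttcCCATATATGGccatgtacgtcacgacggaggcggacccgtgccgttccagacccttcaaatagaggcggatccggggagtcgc

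A CArG box was found in 1.14% of all promoters of this length. Of 20 immediate early genes with a promoter sequence EGR1 was the 1 with a match, and of the 9 called higher likewise.

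Output genes of the ERK pathway and ligands of the EGF receptor family moved in part. Of 18 tested ERK output and feedback genes 5 rose (27.8%, against 2.09% of all genes) and none fell. DUSP6, the phosphatase that acts on ERK, stood at 91.1, 86.9, 98.7 and 92.5 CPM against 115, 113, 118 and 117 CPM (0.32 ± 0.04, adjusted p = 1.06e-06), without overlap. SPRY4, a feedback inhibitor of receptor tyrosine kinase signalling, had 0.20 ± 0.05 (adjusted p = 0.00698). The count of 5 moved to 2 without DMSO 2, UNC0642 3 or UNC0642 4 and to 3 without DMSO 1 or DMSO 4, and it was 1 without the libraries that held COL1A2. Of 13 EGF family ligands and ERBB receptors 4 rose (30.8%, against 2.09%) and 1 fell (7.69%, against 2.31%). NRG1, the neuregulin that binds ERBB3, stood at 4.72, 6.23, 4.84 and 6.95 CPM against 9.72, 10.5, 10.0 and 12.6 CPM, 1.88-fold higher (0.91 ± 0.12, adjusted p = 1.47e-05), while ERBB3 stood at 34.3, 29.3, 32.3 and 26.3 CPM against 25.6, 25.3, 26.7 and 25.8 CPM with overlap (-0.24 ± 0.07, adjusted p = 0.0395). The NRG1 call held in all 8 fits that left out 1 library and the ERBB3 call in 1. The count of risen ligands was 2 without DMSO 1, DMSO 2, UNC0642 1, UNC0642 3 or UNC0642 4.

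Among histone genes of the clusters, whose messages mostly lack a poly(A) tail, 13 of 70 were abundant enough to be tested. Of these 4 rose (30.8%, against 2.09% of all genes) and none fell. Their median log2 fold change was 0.29, with 0.10 from log2 FPKM and 0.57 without the 3 libraries that held COL1A2. These 13 passed a limit on level and do not stand for all 70. HIST1H1C, the linker histone H1.2, stood at 25.6, 25.5, 22.8 and 25.9 CPM against 49.3, 45, 42.6 and 47.7 CPM, 1.85-fold higher without overlap (0.89 ± 0.06, adjusted p = 2.09e-11). The H2A gene HIST2H2AA3 stood at 4.4, 3.64, 4.27 and 3.77 CPM against 7.51, 7.24, 6.39 and 6.68 CPM (0.79 ± 0.12, adjusted p = 0.00013). HIST2H2AA4 had the same values as HIST2H2AA3, being a copy of it, so these 2 make up 1 measurement. HIST1H2BD (0.51 ± 0.14, adjusted p = 0.0385) lost its call in 6 of the 8 fits that left out 1 library (up to 0.134). None of 12 variant and linker histones encoded outside the clusters was called by edgeR, DESeq2 or limma. Of these 4 had an unadjusted p under 0.05, against 17.2% of all tested genes. How messages were selected for sequencing is not given in the sources used here.

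The HIST1H1C promoter is shown because this gene had the smallest p of its list. RefSeq lists the gene as H1-2. Capitals mark AAACACA, known as the H1 box of linker histone promoters, in its reverse form TGTGTTT 242 bases and in its forward form 119 bases before the start, and CCAAT 57 bases before it. The H1 box was looked for after the data were seen.
HIST1H1C, chr6:26056471-26056720, minus strand: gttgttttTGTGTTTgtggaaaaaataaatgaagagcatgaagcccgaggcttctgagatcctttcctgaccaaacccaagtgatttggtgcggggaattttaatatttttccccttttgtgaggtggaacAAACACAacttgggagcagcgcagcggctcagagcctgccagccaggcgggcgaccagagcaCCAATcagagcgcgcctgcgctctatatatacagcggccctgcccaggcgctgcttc

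CCAAT was found in 55 of 65 cluster histone promoters (84.6%) and AAACACA in 6 of 65 (9.23%), against 33.0% and 4.95% of all promoters. All 4 histone genes called higher had CCAAT, so the letters do not set them apart from the rest of the list.

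Part of the keratin family rose. Of 55 keratins 14 were abundant enough to be tested, and 7 of these rose (against 2.09% of all genes) and none fell. The median log2 fold change of the 14 was 0.18, and these do not stand for all 55. Over the 40 fitted with no filter on level the median was 0.82. The keratins added there were too scarce to be tested, such as KRT35 at 0 CPM after DMSO and at most 0.223 CPM after UNC0642. A few reads can set such fold changes, so the 0.82 does not measure how far the family rose. KRT81, a hair keratin, stood at 8.26, 10.7, 11.8 and 9.83 CPM against 19.9, 20.2, 19.2 and 22.6 CPM, 2.02-fold higher (1.02 ± 0.09, adjusted p = 7.65e-09). KRT23 stood at 5.79, 5.68, 5.3 and 5.11 CPM against 10.4, 8.74, 9.93 and 11.6 CPM (0.90 ± 0.11, adjusted p = 2.96e-06), and KRT7, of simple ductal epithelia, had 0.17 ± 0.04 (adjusted p = 0.00681). KRT20, an intestinal keratin, was near the detection limit at 0.268, 0.74, 0.285 and 0.248 CPM against 1.35, 0.89, 1.23 and 1.11 CPM (1.61 ± 0.36, adjusted p = 0.00699). KRT8 (0.03), KRT18 (0.00) and KRT19 (0.01), the main keratins of colorectal epithelium, were not called. The count was 4 without DMSO 2 or UNC0642 4, 3 without the libraries that held COL1A2 and 2 within each gap class. Hair keratins are near copies of one another, so reads may have been split between KRT81 and its relatives.

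Laminin-332 and the hemidesmosome anchor epithelial cells to the basement membrane. Of 11 tested genes of this structure 6 rose (54.5%, against 2.09%) and 1 fell, with a median log2 fold change of 0.11. LAMB3, the beta chain of laminin-332, stood at 53.3, 55, 57.1 and 53 CPM against 65.7, 64.8, 65.4 and 64.5 CPM (0.26 ± 0.04, adjusted p = 0.000182). The groups did not overlap. LAMA3, the alpha chain, had 0.35 ± 0.09 (adjusted p = 0.0188) and lost its call without DMSO 1, DMSO 4, UNC0642 2 or UNC0642 3 (up to 0.0749). The integrin ITGB4 (0.18 ± 0.03), the linker PLEC (0.11 ± 0.02) and the collagen COL17A1 (0.93 ± 0.22) rose, the last from 0.965, 1.97, 2.22 and 2.13 CPM to 2.7, 4.4, 3.65 and 3.17 CPM. COL17A1 kept its call in all 8 fits that left out 1 library but not without the 3 libraries that held COL1A2 (adjusted p = 0.146). With those 3 left out, 3 of the 11 genes rose.

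Epithelial identity genes did not move as a block. Of 9 tested markers of colorectal epithelium 7 were not called and 2 fell (22.2%, against 2.31% of all genes). The summed level of the 10 markers listed was 5889 to 6039 CPM in the DMSO libraries and 5907 to 6104 CPM in the UNC0642 libraries. The epithelial transcription factor ELF3 fell from 37.2, 39.7, 40.3 and 36.1 CPM to 31.4, 27.1, 30.3 and 29.3 CPM (-0.37 ± 0.06, adjusted p = 8.97e-05). At this level ELF3 adds little to the summed level of the markers, so the sum cannot show its fall. CDH1, E-cadherin, had -0.15 ± 0.04 (adjusted p = 0.0453), and its call ended without DMSO 1, DMSO 2, DMSO 3, UNC0642 1, UNC0642 2 or UNC0642 3 (up to 0.166). Markers of blood, fibroblasts and endothelium, 16 genes of which 5 were tested and 0 called by edgeR, DESeq2 or limma (0 at an unadjusted p under 0.05), summed to 30.3 to 38.7 CPM and 30.8 to 40.5 CPM, and none of the 16 was at 0 in all 8 libraries. Their part in the other results was not tested.

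ABCC2, ZBED2 and DHRS2 were among the largest changes. ABCC2, a transporter that exports conjugated organic anions, stood at 34.1, 39.2, 36.8 and 39.1 CPM against 68.4, 67.3, 69.2 and 65.3 CPM, 1.81-fold higher (0.86 ± 0.05, adjusted p = 1.42e-12). Of 9 tested ABC efflux transporters it was the 1 called (11.1%, against 2.09% of all genes called higher), and it is also on the NRF2 and glutathione list. ZBED2, a zinc-finger transcription factor of epithelial cells, went from 28.3, 27.5, 27 and 26.6 CPM to 49.8, 45.9, 47.7 and 50.5 CPM (0.82 ± 0.05, adjusted p = 9.38e-12). DHRS2 fell from 23.7, 21.9, 24.4 and 23.7 CPM to 12.4, 14.2, 11.6 and 12.7 CPM (-0.88 ± 0.07, adjusted p = 2.31e-09). In each of these 3 genes every library of one group lay far from every library of the other.

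Some large rises came from scarce transcripts. MAT1A, the S-adenosylmethionine synthetase typical of liver, went from 1.34, 1.36, 0.968 and 1.09 CPM to 2.35, 2.89, 2.63 and 3.0 CPM (1.19 ± 0.21, adjusted p = 0.000573), while MAT2A, the synthetase of most other tissues, stood at 322 ± 2.96 CPM against 321 ± 5.26 CPM (SD; -0.01 ± 0.02, adjusted p = 0.956). ARHGDIB went from 1.85 to 4.21 CPM on average (1.18 ± 0.17). FABP6, the ileal bile acid binding protein, went from 1.56 to 3.47 CPM (1.15 ± 0.19) and FHAD1 from 2.49 to 5.34 CPM (1.11 ± 0.17). The chemokine gene IL8 rose from 0.536, 0.432, 0.228 and 0.298 CPM to 1.6, 1.06, 1.45 and 1.45 CPM (1.89 ± 0.33, adjusted p = 0.000447). It was the 1 called of 16 tested NF-kB targets and chemokines (6.25%, against 2.09% of all genes called higher). MUC13, a membrane mucin, had 0.429, 0.37, 0.0569 and 0.0496 CPM against 0.551, 1.5, 0.966 and 0.89 CPM (2.10 ± 0.48, adjusted p = 0.00866), and its call ended without DMSO 4 (0.0508). The largest fold change of all, picked out after the values were seen, was that of JMJD7-PLA2G4B, a readthrough transcript with 0, 0, 1.25 and 0 CPM against 2.7, 2.5, 5.96 and 2.11 CPM (3.42 ± 0.55, adjusted p = 0.000165). DESeq2 did not call it (adjusted p = 0.446). It shares its sequence with PLA2G4B, which fell (-0.63 ± 0.16, adjusted p = 0.0217) and lost its call in 4 of the 8 fits that left out 1 library (up to 0.103), so how the counting split reads between the 2 is uncertain.

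No gene of the lists for methionine metabolism and the pathways around it passed the test, against 4.40% of all tested genes called and 17.2% with an unadjusted p under 0.05. MAT1A, the synthetase called higher above, is not on these lists. Of 13 methionine cycle and salvage genes 0 were called by edgeR, DESeq2 or limma, and 5 had an unadjusted p under 0.05. Of 10 polyamine synthesis genes and 18 serine and folate one-carbon genes 0 were called by these tools, and 0 had an unadjusted p under 0.05. Of 33 genes of the ATF4 response to amino acid shortage 4 rose and 1 fell, and the rises of 0.10 to 0.64 on the log2 scale belonged to SLC7A5, STC2, DDIT3 and CHAC1. ASNS, asparagine synthetase and a standard ATF4 target, had 0.08 ± 0.04 (adjusted p = 0.291). The 4 rises numbered 1 without UNC0642 3, and 2 without DMSO 1, DMSO 3, DMSO 4 or UNC0642 1, and none was called without the 3 libraries that held COL1A2. Of 23 genes of the endoplasmic reticulum stress response 0 were called by edgeR, DESeq2 or limma, and 7 had an unadjusted p under 0.05.

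Other lists held few called genes, against 2.09% of all genes higher and 2.31% lower. Of 29 p53 targets 1 rose, of 32 interferon-stimulated genes 1 rose and 1 fell, and of 30 NRF2 and glutathione genes 2 rose and 2 fell. Among 40 mitosis genes 1 was called higher and among 48 DNA replication genes 2 lower. With 1 library left out the interferon rise was lost in 7 of 8 fits, and the DNA replication count was 1 in 7 of 8. The NRF2 falls numbered 1 without DMSO 2, DMSO 3, DMSO 4, UNC0642 1 or UNC0642 3. Cytosolic ribosomal protein genes had small negative log2 fold changes in 78 of 85 cases, with a median of -0.05, and 7 of them fell. That count lay between 2 and 9 with 1 library left out, was 0 without the 3 libraries that held COL1A2, and was 12 with DESeq2. VGF, a secreted neuropeptide precursor, rose from 77.2, 75.5, 81.2 and 73 CPM to 95.2, 93.9, 95.5 and 101 CPM (0.33 ± 0.04, adjusted p = 1.82e-06), and the granin SCG2 rose with it (0.52 ± 0.11, adjusted p = 0.00457). They were the 2 called of 22 neuronal genes of the kind that REST silences. SCG2 lost its call in the long-gap libraries (adjusted p = 0.1685) and without the 3 libraries that held COL1A2 (0.0585), while VGF kept its call in both fits.

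**Figure D5:**
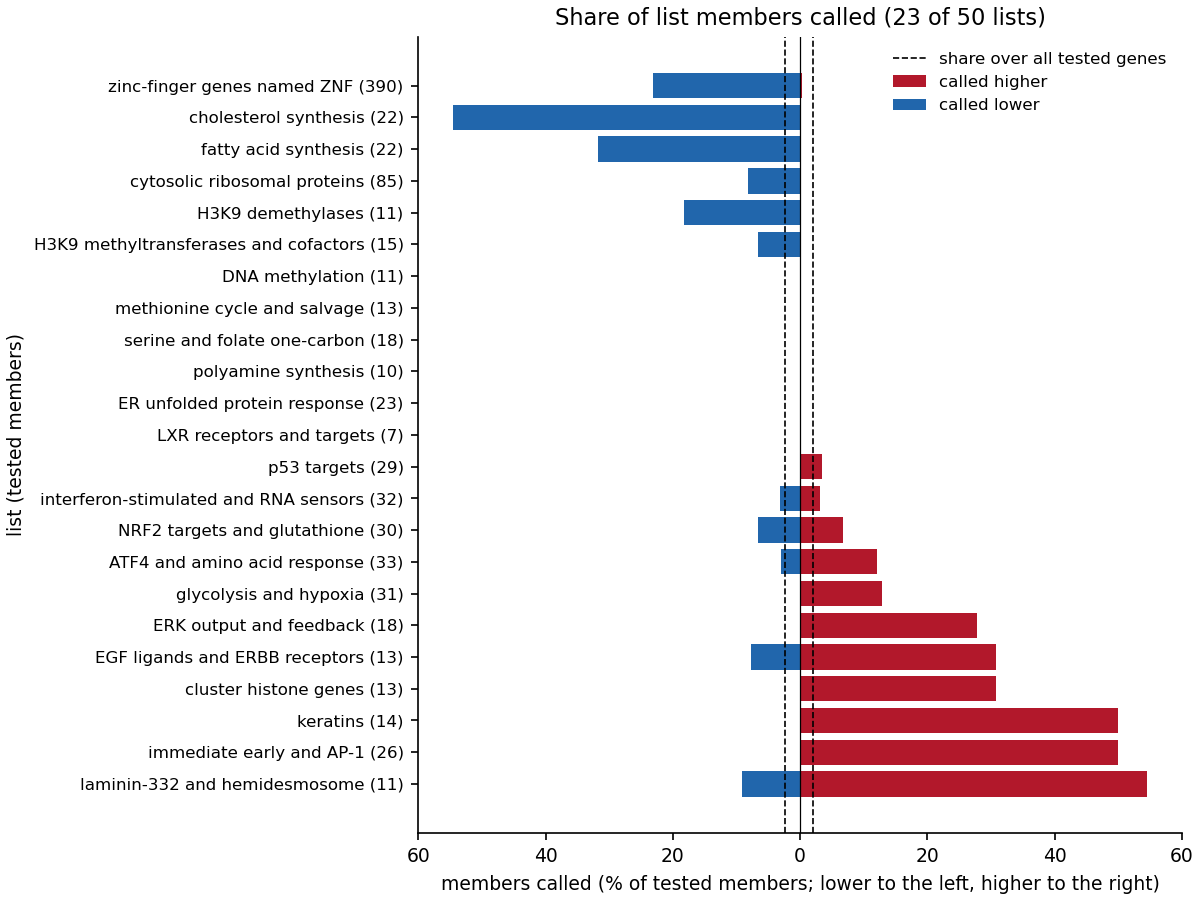
Share of the tested members of 23 gene lists that were called higher (to the right) or lower (to the left) after UNC0642, in % of tested members, whose number stands in brackets. Dashed lines mark the shares over all tested genes, 2.09% and 2.31%. Cholesterol synthesis (54.5%) reaches furthest to the left and the laminin-332 list (54.5%) furthest to the right.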

How the data were processed

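RNA sequencing of total RNA from HCT116 cells was deposited as 1 table per library. Per the submitters' processing notes the authors used RSEM 1.2.4 and Bowtie with the build hg18, and per the file headers the tables hold expected counts, FPKM, lengths and effective lengths per gene. Whether counting used strand is not given in the sources used here. Overlapping, antisense and near-identical genes are uncertain. Groups came from the sample titles.

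Deposited expected counts were rounded to whole numbers, filtered with filterByExpr (12672 of 18969 genes) and tested with edgeR 4.0.16 (TMM factors, quasi-likelihood F-test) in R 4.3.3 on the 8 libraries, two-sided. The biological coefficient of variation was 3.51%. Fold changes are UNC0642 over DMSO with SE from the fit, and CPM uses TMM factors except for COL1A2, scaled to library totals. No pair of libraries within a group agreed within sampling noise (chi-square of 2.08 to 3.56 for each degree of freedom), so none was taken as a duplicate. Alternatives were DESeq2 1.42.0, limma 3.58.1 (voom, and log2 FPKM with a pseudocount of 1 on the deposited FPKM values), other scalings and filters, effective lengths, gap classes, a replicate block and left-out libraries. RefSeq (GRCh38.p14, 99.7% of names matched) gave gene order and promoters.

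Named genes were the 15 largest rises and falls within the limits in the text, for each list up to 4 genes by smallest p, and EHMT1, EHMT2, MAT2A, ASNS and ZNF274. Further list members were named after their values were seen. Members and lists were chosen with earlier results of these data known. A few genes named by this rule are not reported here.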

Additional observations from a re-analysis of the deposited data

Results flagged for a closer look

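A single library lay far from the other 3 of its group for some of the genes named (its gap to the nearest library, over the group's range, passed Dixon's critical value for groups of 4). Of 242 groups looked at 12 were marked, and chance marks about 1 in 20.

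EGR1 stood at 85.3 CPM in UNC0642 3 and at 74.4 to 76.1 CPM in the other UNC0642 libraries. HIST1H1C stood at 22.8 CPM in DMSO 3 against 25.5 to 25.9 CPM. CTGF reached 14 CPM in UNC0642 2 against 12.3 to 12.6 CPM. KRT20 had 0.740 CPM in DMSO 2 against 0.248 to 0.285 CPM. Among lipid genes, IDI1 had 68.2 CPM in UNC0642 2 against 58.7 to 60.2 CPM, ACACA 262 CPM in DMSO 4 against 271 to 272 CPM, FADS1 73.3 CPM in UNC0642 4 against 76.7 to 77.4 CPM, and LBR 191 CPM in DMSO 4 against 182 to 183 CPM. Among zinc-finger genes, ZNF283 had 5.92 CPM in DMSO 2 against 4.88 to 5.01 CPM, and ZNF219 16.3 CPM in DMSO 4 against 18.4 to 18.8 CPM. The readthrough JMJD7-PLA2G4B had 1.25 CPM in DMSO 3 and 0 in the other DMSO libraries, and 5.96 CPM in UNC0642 3 against 2.11 to 2.70 CPM.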

How the results depend on the processing

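No alternative called a gene in the direction opposite to that found with 8 libraries, and no named gene reversed. Of 121 named genes, 103 were called in the test reported. In every alternative 56 of the 121 kept their side of the threshold, among them all genes not called, since none gained a call. Of 2899 values 264 passed to the other side, all by losing a call. The number of genes called was 274 in the long-gap libraries (132 higher, 142 lower), 137 in the short-gap libraries (59 higher, 78 lower) and 274 without the libraries that held COL1A2 (119 higher, 155 lower). The fit without the COL1A2 libraries holds fewer samples. The gap classes were compared within a single fit to all 8 libraries, which gave the spread. The short-gap comparison has DMSO 1 as its 1 DMSO library, which is assumed to vary like the other libraries. ZNF genes called lower numbered 51, 19 and 55 in these 3 fits, and immediate early genes called higher numbered 5 in the short-gap libraries and 5 without the COL1A2 libraries. With 1 library left out, 361 to 584 genes were called, 165 to 261 higher and 196 to 323 lower, with the fewest without DMSO 2 or DMSO 4. Other counts over all genes included 456 with DESeq2, 418 with log2 FPKM, 624 with effective lengths (256 higher, 368 lower), 650 with a length trend removed and 731 with gap class as a covariate. The share of higher calls was 41.0% to 53.1% over all alternatives, 47.5% in the test reported.

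Replicate numbers are shared between the groups. With replicate number as a block 532 genes were called, 495 of them in common with the unblocked fit, and 18 in place of 7 ribosomal protein genes fell. The deviations of same-numbered libraries correlated at 0.0532, 0.0267, -0.0339 and -0.0142, and DMSO 3, DMSO 4, UNC0642 2, UNC0642 3 and UNC0642 4 each correlated best with another number, so the numbers were not taken as pairs.

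The 16181056 to 20179847 counts per library limit what can be seen of scarce genes such as KRT20 and MUC13.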

Other observations

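Other lists held a few called genes each, against 2.09% of tested genes called higher and 2.31% lower. DKK1, a secreted WNT inhibitor and WNT target, stood at 178, 178, 189.7 and 189 CPM after DMSO and 251, 239, 244 and 247 CPM after UNC0642 (0.42 ± 0.03, adjusted p = 6.74e-11). It was 1 of 2 called among 16 WNT targets, and the count was 1 without DMSO 2, UNC0642 3 or UNC0642 4. The list of S100 calcium-binding genes also holds S100PBP, whose product binds an S100 protein. Of the 10 tested genes on the list 3 rose, S100A14 (0.33 ± 0.05), S100A10 (0.14 ± 0.03) and S100A6 (0.11 ± 0.03), the last without a call when DMSO 4 was left out (adjusted p = 0.0508). S100A10 lost its call in the long-gap libraries (adjusted p = 0.105) and without the 3 libraries that held COL1A2 (0.0505). Of 25 mesenchymal and actin genes 3 rose, among them the actin crosslinker FLNA (0.12 ± 0.02) and the adhesion protein VCL (0.12 ± 0.03). VCL lost its call in the long-gap libraries (adjusted p = 0.158) and without the 3 libraries that held COL1A2 (0.0785). The count of 3 became 2 and 1 in these fits.

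Of 31 glycolysis and hypoxia genes 4 rose (12.9%, against 2.09% of all genes) and none fell. NDRG1 (0.24 ± 0.05, adjusted p = 0.0014) kept its call with each library left out, and the count fell to 1 without DMSO 2 and to 2 without DMSO 4 or UNC0642 4. Without the 3 libraries that held COL1A2 it was 1, and in the short-gap libraries 0. Of 19 heat shock genes 3 fell (15.8%, against 2.31% of all genes). All 3 are abundant chaperones, HSP90AA1 (-0.11 ± 0.02), HSP90AB1 (-0.07 ± 0.02) and HSPD1 (-0.09 ± 0.02). GDF15, a secreted stress factor, was the 1 p53 target that rose (0.20 ± 0.04, adjusted p = 0.00557).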
